A study of Mus musculus with 6 samples.

Results

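Translation initiation and elongation factors are the proteins that bring messenger RNA, initiator tRNA and ribosomal subunits together and then move the ribosome along the coding sequence. Their genes were followed here by all array probes whose annotated symbol begins with Eif and a number from 1 to 6, or with Eef and 1 or 2, leaving out the eIF2 and eEF2 kinases. The rule took 49 of the 23466 probes in the table, standing for 47 genes, after 4 matching kinase probes were left out. Under current symbols 4 of the 49 are Argonaute genes (Ago1 to Ago4), which the array annotation still lists as Eif2c genes. The other 45 probes, of 43 genes, are called factor probes here. Eif4ebp1, Eif4ebp2, Eif4enif1 and Eef1e1 are among them, though they encode regulators or accessory proteins. Many eIF3 subunits were also listed under older names (Eif3s6 for Eif3e, for example) and are given here under current symbols. Eif1, Eif1ax, Eif2s2, Eif2s3y, Eif3g, Eef1g and Eif4ebp3 were not analysed here, and Eif6, Eif4a3 and Eif4h, annotated under names outside the rule, appear only as neighbours.

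The cells were cultured neural stem cells (NSCs) from the brain of C57BL6 mice at postnatal day 0, either homozygous or heterozygous for a changed Ecrg4 allele or Ecrg4 wild type, with 2 arrays for each genotype. The medium, the same for all genotypes, was DMEM/F12 supplemented with heparin and the mitogens bFGF and EGF, and no treatment was given. Ecrg4 encodes a secreted precursor of small peptides. The sources used here do not say how the allele was changed, nor whether both arrays of a genotype stand for different animals or cultures. The p-values therefore speak of the spread from array to array alone, and that spread may be technical.

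In textbook outline, eIF2 carries the initiator tRNA to the small ribosomal subunit as a complex with GTP, and eIF2B recharges eIF2 with GTP after each round. eIF3 is the large scaffold on the small subunit, and the cap-binding protein eIF4E, the scaffold eIF4G and the helicase eIF4A recruit the messenger RNA. In elongation eEF1A delivers aminoacyl-tRNA and eEF2 drives translocation. Neural stem cells are known to hold protein synthesis at a regulated level, with eIF2 phosphorylation and the eIF4E-binding proteins among the known switches.

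The sequence around the annotated start of Eif2s3x is shown first because it is the factor gene whose probe passed the test below. Sequences are those of RefSeq on build GRCm38.p6, and 34 of the 43 factor genes were found in that promoter table. Capitals mark a tract that begins at the annotated start base with C followed by at least 4 letters that are C or T, the kind of start carried by many messenger RNAs of the translation machinery.
Eif2s3x, chrX:94212632-94212901, minus strand: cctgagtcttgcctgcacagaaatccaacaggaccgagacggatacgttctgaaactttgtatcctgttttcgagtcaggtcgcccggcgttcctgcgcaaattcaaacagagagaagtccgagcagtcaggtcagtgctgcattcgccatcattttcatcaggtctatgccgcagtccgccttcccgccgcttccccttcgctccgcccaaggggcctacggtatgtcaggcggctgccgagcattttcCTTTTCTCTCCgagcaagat
Eif3f, chr7:108934375-108934434, plus strand: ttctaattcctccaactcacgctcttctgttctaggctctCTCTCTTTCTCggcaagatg
Such a tract stood at the annotated start of these 2 factor genes, 5.88% of the 34, against 3.01% of all 27025 genes in the table. A match describes letters only, and no match says only that these letters are not at the annotated start.

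The letters CCGGAAG, a site recognised by the ETS family of transcription factors, were searched on both strands from 250 bases before to 50 bases after each start. They were held by 12 of the 34 factor genes (35.3%), against 9.93% of all genes, and TATAAA by 4 of the 34 (11.8%), against 15.7% of all genes. All genes means the 27025 of the promoter table, whatever their level in these cells, so the contrast is not particular to translation factors. A gene counted if any of its promoters matched, and the 34 had 46 promoters, beside 32851 for all genes. Stretches from 40 bases before the start to 20 bases from it show 3 of the matches in capitals, in genes for an elongation factor, an exchange factor and a cap-binding protein.
Eef1b2, chr1:63176791-63176850, plus strand: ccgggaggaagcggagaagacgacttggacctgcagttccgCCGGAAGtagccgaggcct
Eif2b4, chr5:31193120-31193179, minus strand: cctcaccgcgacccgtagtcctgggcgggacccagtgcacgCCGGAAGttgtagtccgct
Eif4e2, chr1:87213871-87213930, plus strand: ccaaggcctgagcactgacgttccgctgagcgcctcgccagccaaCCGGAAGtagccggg
None of these 3 genes passed the test in any comparison below.

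Values are the deposited 1-colour intensities, on a linear scale with a median of 30 on each array. As a yardstick for background, the 95th percentile of 663 olfactory receptor probes lay between 50.5 and 57.6 on the 6 arrays. Of the 49 probes, 37 read above that level on all 6 arrays, 7 read below it on all 6 (Eif4e3, Eif4g1, Eif4g3, Eif5a2, Eef1a2, Eef1d and Ago3) and 5 were mixed. The text gives no fold for probes below that level on an array of either genotype compared, which are plotted with the rest. The targeted gene followed the homozygous label: Ecrg4 read 1.4 and 1.3 in homozygous cells and 345.5 and 373.9 in heterozygous cells, against 112.9 and 154.9 in wild-type cells. In heterozygous against wild-type cells it was higher, by a log2 fold change of 1.44 ± 0.19 (adjusted p = 0.03947 in the limma test below). This gene therefore checks the homozygous label only. Of 9 neural stem and progenitor genes with a probe, 8 read above the olfactory level on all arrays, and Fabp7 and Nes were among them. Wild-type array 1 stood apart from its partner in several members, which are named where they occur.

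In homozygous against wild-type cells 1 of the 48 tested factor and Argonaute probes passed the test, Eif2s3x, which rose (limma, Benjamini-Hochberg adjusted over all 20434 probes tested, threshold 0.05). Over all probes 0.920% passed in either direction and 0.431% in the higher direction, and an unadjusted p under 0.05 was met by 9 of the 48, against 19.0% of all probes. In heterozygous against wild-type cells 0 of the 48 passed in limma, against 0.749% of all probes, and 3 of the 48 had an unadjusted p under 0.05, against 13.5% of all probes. In homozygous against heterozygous cells the only probe to pass was again Eif2s3x, against 2.69% of all probes in either direction and 1.26% in the higher direction, and 7 of the 48 had an unadjusted p under 0.05, against 18.2% of all probes. In the F test over the 3 genotypes 1 of the 48 passed, against 2.26% of all probes. The homozygous arrays enter 2 of these comparisons and so do the wild-type and the heterozygous arrays, so the comparisons are not independent.

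The medians of the factor and Argonaute probes lay near 0. The median log2 fold change was 0.067 in homozygous against wild-type cells (28 probes above 0, 20 below), where all probes had a median of 0.019. It was 0.048 in heterozygous against wild-type cells (27 above, 21 below), where all probes had -0.012, and 0.028 in homozygous against heterozygous cells (26 above, 22 below), where all probes had 0.039. The values of the 2 genotypes did not overlap for 24 of 48 probes in homozygous against wild-type cells (50.5% of all probes), 25 of 48 in heterozygous against wild-type cells (45.5%) and 30 of 48 in homozygous against heterozygous cells (54.6%). The 95% interval of the difference lay within 2-fold either way for 40, 43 and 45 of the 48 probes in these comparisons in the same order, against 73.3%, 76.0% and 74.6% of all probes. Most members were bright, so the like set is the 9083 tested probes with a mean above the olfactory receptor level. Of those, 7709, 8050 and 7816 had the interval within 2-fold, against 34, 35 and 36 of 38 such members. The genotypes did not overlap for 5207, 4667 and 5726 of the 9083, against 18, 22 and 25 of the 38. An interval inside 2-fold bounds the size of a change and does not show that there was none.

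**Figure D1:**
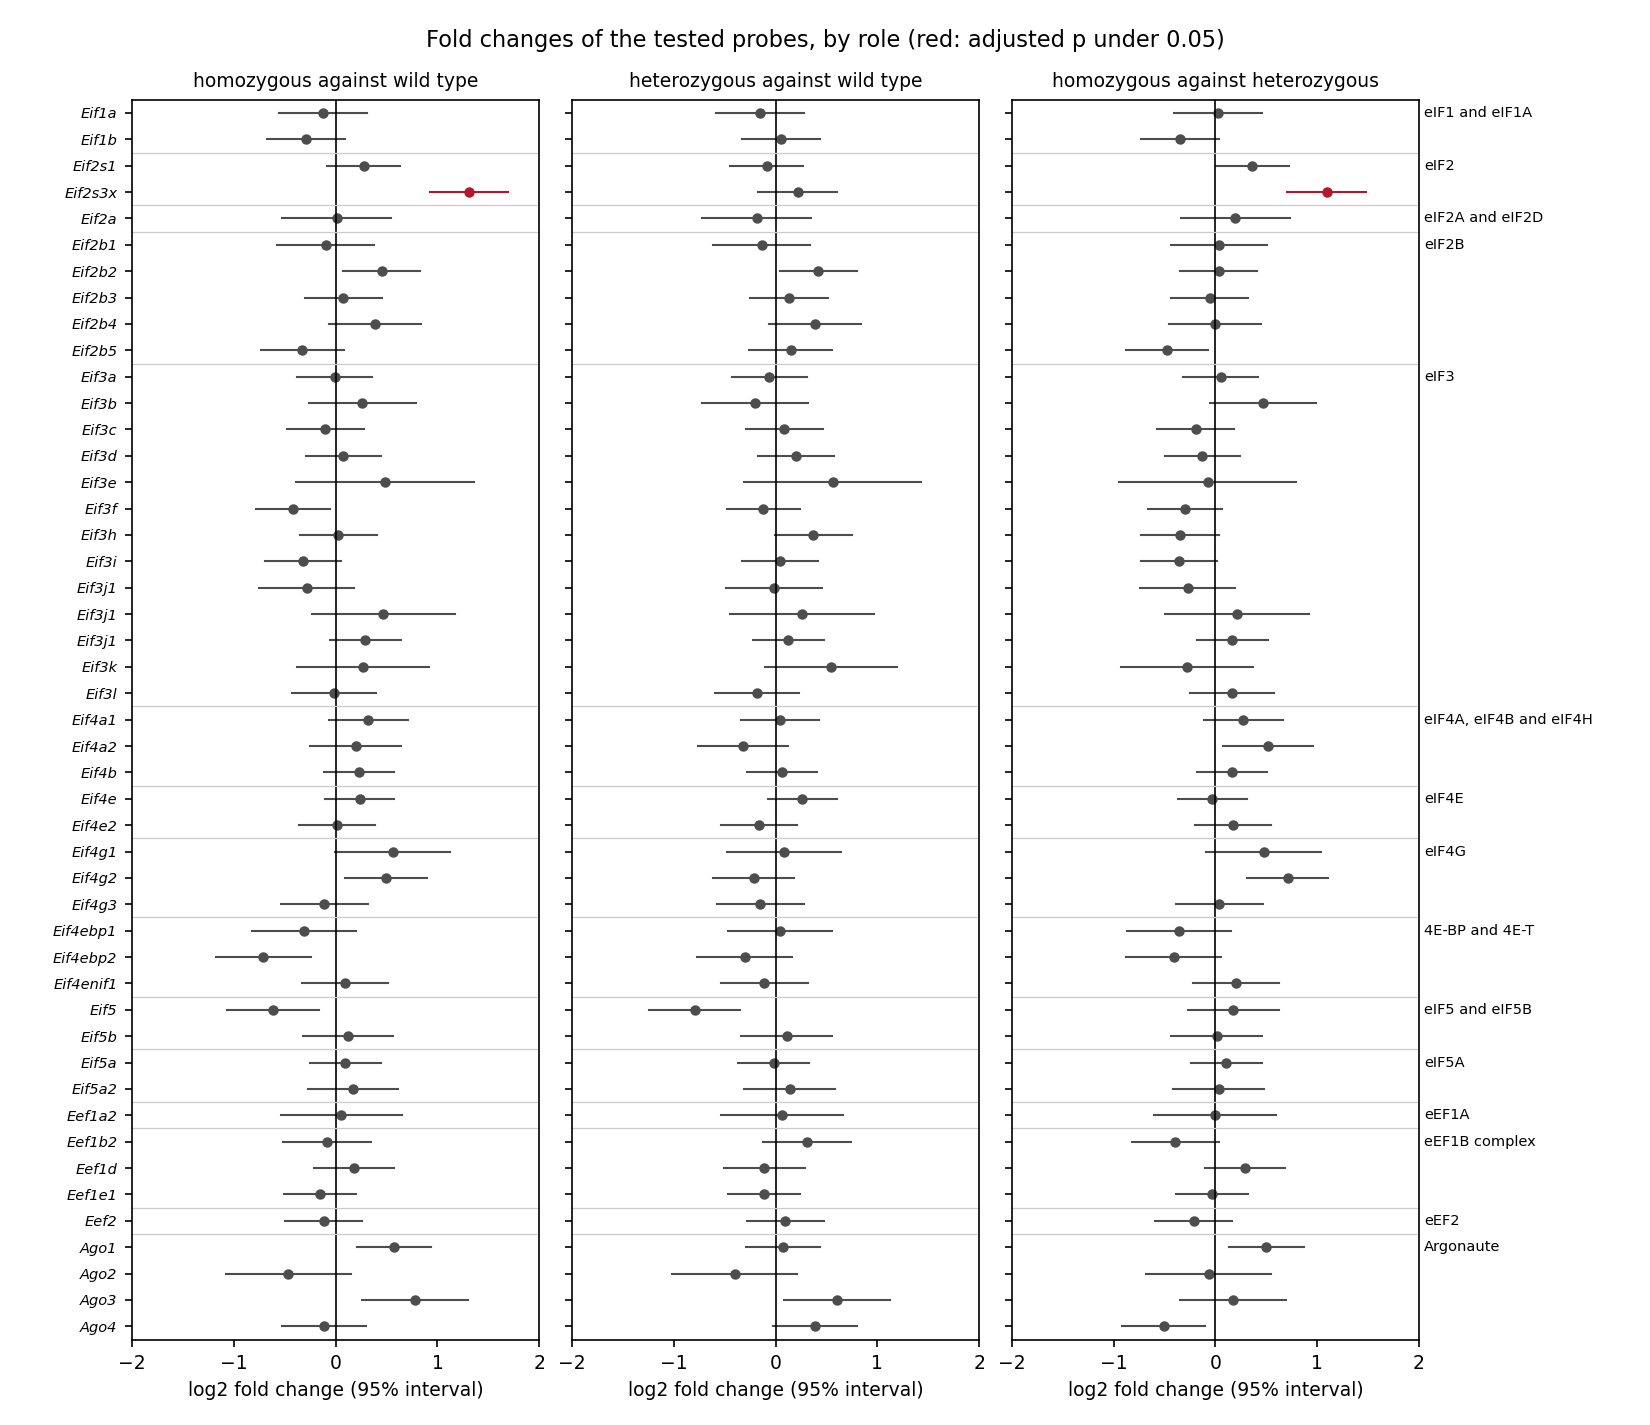
Log2 fold change of 47 tested probes (horizontal axis, points, with the 95% interval of the limma fit as a line) in the 3 pairwise comparisons, grouped from top to bottom by role. Eif2s3x, in red, is the only probe with an adjusted p under 0.05 and sits at 1.31 and 1.09 in the comparisons with homozygous cells on top; Eef1a1 is left out because it read the highest value of every array, and points of probes below the olfactory receptor level are differences of dim intensities.

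The only member probe to pass the test was 1 of the 2 tested eIF2 probes. Eif2s3x, on the X chromosome, encodes the gamma subunit of eIF2, which binds GTP and the initiator tRNA. It read 351.5 and 292.1 in homozygous cells and 146.2 and 154.4 in heterozygous cells, against 132.6 and 126.1 in wild-type cells. Both homozygous arrays lay above every other array, and the heterozygous and wild-type arrays lay close together. The log2 fold change was 1.31 ± 0.16 (SE) in homozygous against wild-type cells, 2.48-fold (adjusted p = 0.02967), and 1.09 ± 0.16 in homozygous against heterozygous cells, 2.13-fold (adjusted p = 0.02865). In heterozygous against wild-type cells it was 0.22 ± 0.16 (adjusted p = 0.5489), with an interval from -0.17 to 0.60. Its log2 fold change against wild type lay between 1.05 and 1.44 in 16 alternative settings. Several of these alter the test alone and could not move this value. The call was made in only 6 of the 16. Among the settings that lost it, the adjusted p was 0.05285 with array weights, 0.05616 with blank cells filled, 0.07309 with the 4 arrays compared alone, and between 0.05823 and 0.2238 when any 1 of the 6 arrays was left out. The call against heterozygous cells was made in 11 of the 16. Among the settings that lost it were the fits without either homozygous or either heterozygous array. Wild-type arrays do not enter this estimate, so leaving either of them out could not move the log2 fold change of 1.09. Those fits gave identical values, and both are counted among the 11.

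Eif2s3x is known in mouse to escape X inactivation, so its level differs with the number of X chromosomes, and the labels do not give the sex of the cells. Other X-linked genes known in mouse to escape were looked up after the values of Eif2s3x were seen. Ddx3x, a helicase gene, read 1647.3 and 1584.2 in homozygous cells and 1075.5 and 1166.8 in heterozygous cells, against 976.9 and 1139.4 in wild-type cells. A second Ddx3x probe read 1450.1 and 1467.9 in homozygous cells and 965.0 and 1179.7 in heterozygous cells, against 950.7 and 1050.0 in wild-type cells. Kdm6a, a histone demethylase gene, read 205.6 and 241.6 in homozygous cells and 163.7 and 167.4 in heterozygous cells, against 146.6 and 162.9 in wild-type cells. Both homozygous arrays again lay above the other 4 in each gene. Pbdc1 read 1159.3 and 1199.0 in homozygous cells and 883.1 and 769.0 in heterozygous cells, against 951.2 and 896.5 in wild-type cells, while Kdm5c was dim (between 5.0 and 11.4 on all arrays). The Y-linked Kdm5d was ordered the other way, at 68.1 and 82.5 in homozygous cells and 121.7 and 109.7 in heterozygous cells, against 114.1 and 107.3 in wild-type cells. None of these 6 probes passed the adjusted test. The 5 X-linked probes stand for 4 genes, since 2 are of Ddx3x. An unadjusted p under 0.05 was met by 3 of the 5 in homozygous against wild-type cells (19.0% of all probes), both Ddx3x probes and Kdm6a. In homozygous against heterozygous cells it was met by 4 (18.2%), the same 3 and Pbdc1. Over the X chromosome the median log2 fold change of 486 probes was 0.030 in homozygous against wild-type cells, beside 0.025 over 14195 autosomal probes. Above the olfactory level it was 0.0089 over 213 X-linked probes, beside 0.0037 over 6775 autosomal probes. There it was 0.13 beside 0.043 in heterozygous against wild-type and -0.11 beside -0.038 in homozygous against heterozygous cells. These medians are not limited to genes that escape X inactivation, so they cannot decide the sex of the cells. The part of the cells' sex in the Eif2s3x result was not tested.

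**Figure D2:**
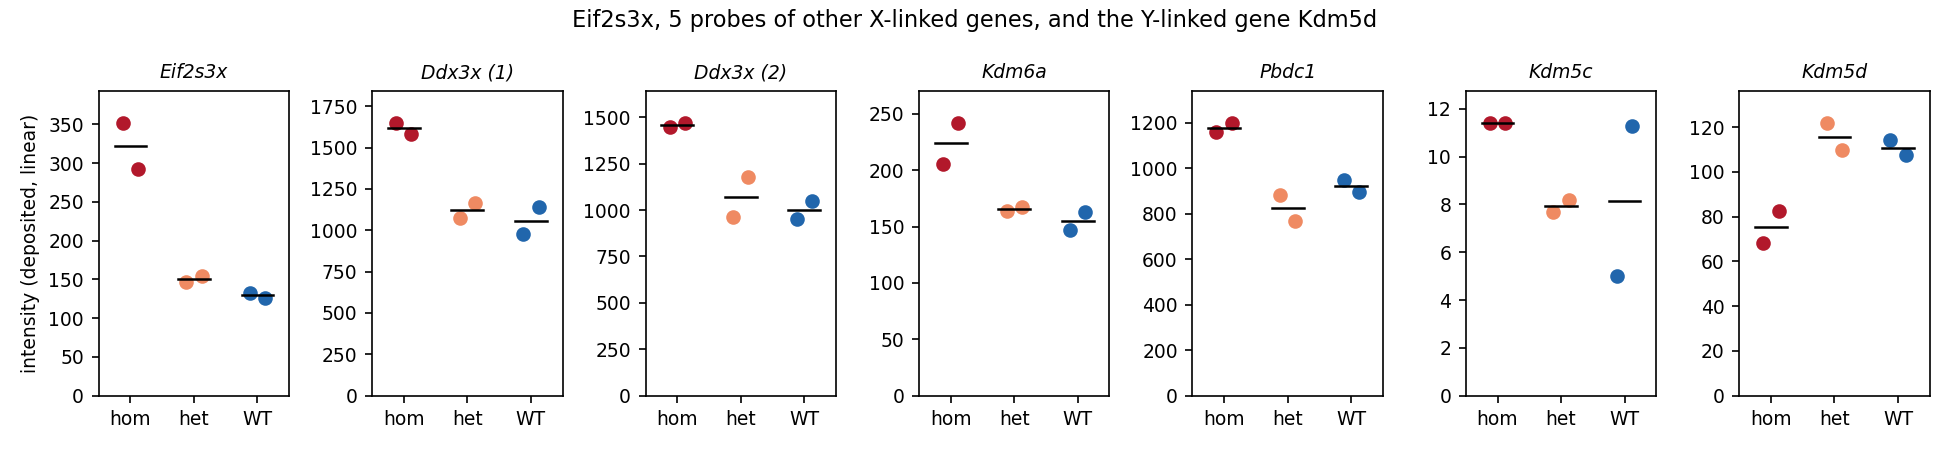
Deposited intensity (vertical axes, linear and starting at 0) of Eif2s3x, of 5 probes of X-linked genes and of the Y-linked Kdm5d; each point is 1 array, bars are the mean of 2 arrays, and hom, het and WT are homozygous, heterozygous and wild-type cells. Both homozygous points lie above the other 4 in Eif2s3x, Ddx3x, Kdm6a and Pbdc1, and below them in Kdm5d.

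Single genes on marker lists of other cell types also differed between genotypes. The neuron genes Elavl4 and Gap43 rose and the smooth muscle actin gene Acta2 fell in homozygous against wild-type cells in the same test. They were 2 of 8 tested neuron probes and 1 of 5 tested fibroblast and mural probes, where 0.920% of all probes passed. Of the 6 tested oligodendrocyte lineage probes, 0 passed in any comparison. The summed intensity of 8 neuron genes, of which 6 read below the olfactory level on all arrays, was 5182.6 to 5243.1 in homozygous cells and 4033.5 to 5362.7 in heterozygous cells, against 1999.1 to 2015.3 in wild-type cells. Most of it came from Gap43, a growth cone gene, at 4809.2 and 4796.1 in homozygous cells and 3782.4 and 5138.8 in heterozygous cells, against 1758.0 and 1778.9 in wild-type cells. The sum of 5 fibroblast and mural genes, of which 4 were below that level on all arrays, was 172.1 to 200.7 in homozygous cells and 367.4 to 370.6 in heterozygous cells, against 1023.1 to 1308 in wild-type cells. Acta2 made up most of it, at 88.0 and 118.5 in homozygous cells and 277.5 and 284.6 in heterozygous cells, against 1229.5 and 894.8 in wild-type cells. The sum of 6 astrocyte genes, of which 3 were below that level on all arrays, was 2006.9 to 2187.7 in homozygous cells and 3356 to 3401.9 in heterozygous cells, against 1553 to 2136.7 in wild-type cells. Heterozygous cells had the highest astrocyte sums. Most of each sum came from Gja1, at 1940.3 and 1825.8 in homozygous cells and 2917.2 and 2925.3 in heterozygous cells, against 1361.3 and 1860.2 in wild-type cells. Gja1 did not pass (adjusted p = 0.1461 in heterozygous against wild-type and 0.1548 in homozygous against heterozygous cells). The water channel gene Aqp4 passed in homozygous against heterozygous cells, at 14.3 and 8.0 in homozygous cells, against 66.8 and 45.5 in heterozygous cells. Of these values only 66.8 was above the olfactory level. Of the microglia genes with a tested probe, Csf1r read above the olfactory level on 1 array (62.4 on homozygous array 2). The others were below it on all arrays, including P2ry12 (2.8 to 12.4) and Cx3cr1 (3.7 to 9.8), which passed in at least 1 comparison. The part of cell composition in the factor values was not tested. In such cultures fewer cells of a type and less RNA per cell cannot be told apart.

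The alpha subunit gene Eif2s1, whose product is the phosphorylation target of the stress kinases, was near background at 54.6 and 61.0 in homozygous cells and 46.0 and 43.8 in heterozygous cells, against 48.9 and 46.5 in wild-type cells. Only the homozygous arrays were above the olfactory level, and no comparison passed (adjusted p = 0.3598 against wild type and 0.269 against heterozygous cells). Eif2a, which despite its name encodes a separate tRNA-binding protein, overlapped between all genotypes, at 1674.0 and 1573.0 in homozygous cells and 1164.3 and 1719.4 in heterozygous cells, against 1488.4 and 1740.7 in wild-type cells. Eif1a and Eif1b, which help the small subunit select the start codon, did not pass, with log2 fold changes of -0.13 ± 0.18 and -0.29 ± 0.16 in homozygous against wild-type cells.

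None of the 5 eIF2B subunit probes, which read between 345.1 and 1807.8, passed the test in any comparison. Of all probes 0.920% passed in homozygous against wild-type, 0.749% in heterozygous against wild-type and 2.69% in homozygous against heterozygous cells. The absence of calls among so few probes therefore says little. Eif2b2, the beta subunit gene, read 850.3 and 897.4 in homozygous cells and 889.6 and 820.2 in heterozygous cells, against 590.1 and 691.0 in wild-type cells. Wild-type arrays were the lower ones, with a log2 fold change of 0.45 ± 0.16 in homozygous against wild-type cells (adjusted p = 0.2039) and 0.42 ± 0.16 in heterozygous against wild-type cells (adjusted p = 0.3328). Eif2b4, the delta subunit gene whose start is shown above, had a like order, with 539.5 and 506.9 in homozygous cells and 539.8 and 506.9 in heterozygous cells, against 345.1 and 464.5 in wild-type cells (adjusted p = 0.3229 for homozygous and 0.4102 for heterozygous against wild-type cells). Eif2b5, the catalytic epsilon subunit gene, was ordered differently: it read 1404.0 and 1183.9 in homozygous cells and 1807.8 and 1774.6 in heterozygous cells, against 1489.5 and 1755.8 in wild-type cells. Its homozygous arrays were the lowest, and its log2 fold change was -0.47 ± 0.17 in homozygous against heterozygous cells (adjusted p = 0.214) and -0.33 ± 0.17 in homozygous against wild-type cells (adjusted p = 0.3448). Eif2b1 and Eif2b3, for the alpha and gamma subunits, had log2 fold changes between -0.13 and 0.13 in the 3 comparisons.

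The 13 eIF3 probes, for 11 subunit genes, gave 0 calls in any comparison. Of all probes 0.920% passed in homozygous against wild-type, 0.749% in heterozygous against wild-type and 2.69% in homozygous against heterozygous cells. An unadjusted p under 0.05 was met by 1 eIF3 probe in homozygous against wild-type cells (19.0% of all probes). It was met by 0 eIF3 probes in heterozygous against wild-type (13.5%) and homozygous against heterozygous cells (18.2%). The median log2 fold change of the eIF3 probes was 0.027 in homozygous against wild-type cells, 0.088 in heterozygous against wild-type cells and -0.13 in homozygous against heterozygous cells. Eif3f, whose start tract is shown above, encodes one of the subunits with an MPN domain and was the probe with the unadjusted p under 0.05. It read 4979.2 and 4543.1 in homozygous cells and 6053.1 and 5669.1 in heterozygous cells, against 6087.7 and 6640.8 in wild-type cells. Its homozygous arrays were the lowest (log2 fold change -0.42 ± 0.15 against wild type, adjusted p = 0.2128; -0.30 ± 0.15 against heterozygous cells, adjusted p = 0.3573). Eif3i, for a WD-repeat subunit that binds eIF3b, likewise had its lowest values in homozygous cells, at 6657.7 and 7133.2, with 8774.5 and 8908.9 in heterozygous cells, against 7944.6 and 9272.8 in wild-type cells. Eif3h, for the other MPN-domain subunit, was highest in heterozygous cells, with 6349.5 and 6981.3 in homozygous cells and 8850.0 and 8081.7 in heterozygous cells, against 6101.6 and 6997.7 in wild-type cells (log2 fold change 0.37 ± 0.16 in heterozygous against wild-type cells, adjusted p = 0.3736).

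For 3 other eIF3 probes the difference from wild type moved with wild-type array 1. Eif3e read 1925.9 and 1919.6 in homozygous cells and 2043.8 and 2006.2 in heterozygous cells, against 912.7 on wild-type array 1 and 2063.1 on wild-type array 2. The wild-type arrays were thus 2.26-fold apart while the other 4 arrays agreed closely; the log2 fold change in heterozygous against wild-type cells was 0.56 ± 0.36. It was -0.03 when array 1 of the wild type was left out, and 1.15 when array 2 was, with an adjusted p of 0.04767 in that fit. Eif3k, at 3508.1 and 3506.5 in homozygous cells and 4483.4 and 4037.7 in heterozygous cells, read 2205.9 and 3843.3 in wild-type cells, 1.74-fold apart. Eif3j1, for a loosely bound subunit, had 3 probes that disagreed in sign in homozygous against wild-type cells, with log2 fold changes of -0.29 ± 0.19, 0.47 ± 0.29 and 0.29 ± 0.14. The middle one of these read 68.4 and 127.4 on the wild-type arrays, 1.86-fold apart, and its log2 fold change was 0.02 without wild-type array 1. The subunit genes Eif3a, Eif3c, Eif3d and Eif3l differed by between -0.19 and 0.20 on the log2 scale in the 3 comparisons. Eif3b differed by between -0.20 and 0.47, its homozygous arrays being apart from each other (944.8 and 1378.1).

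Among the genes of cap recognition and mRNA recruitment, 0 of the 11 tested probes passed in any comparison. The shares of all probes were 0.920% (homozygous against wild type), 0.749% (heterozygous against wild type) and 2.69% (homozygous against heterozygous). Eif4g2 came nearest in homozygous against heterozygous cells; it encodes a relative of eIF4G that lacks the eIF4E-binding region and serves cap-independent initiation. It read 2884.6 and 3532.3 in homozygous cells and 2044.7 and 1864.2 in heterozygous cells, against 2263.0 and 2268.6 in wild-type cells. The homozygous arrays were the highest, with a log2 fold change of 0.71 ± 0.16 against heterozygous cells (adjusted p = 0.09097) and 0.49 ± 0.16 against wild type (adjusted p = 0.1936). Against heterozygous cells it passed in 6 of the 16 alternative settings, with adjusted p between 0.01167 and 0.04928. The other scaffold genes, Eif4g1 (23.2 to 43.1) and Eif4g3 (14.8 to 19.1), were below the olfactory level on all arrays.

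Eif4a2, for a helicase also linked to microRNA repression, read 4887.2 and 5067.8 in homozygous cells and 3786.8 and 3201.1 in heterozygous cells, against 3851.9 and 4903.0 in wild-type cells. Its heterozygous arrays were the lowest, with a log2 fold change of 0.52 ± 0.18 in homozygous against heterozygous cells (adjusted p = 0.2147) and -0.32 ± 0.18 in heterozygous against wild-type cells (adjusted p = 0.4659). The major helicase gene Eif4a1 read 10502.8 and 11216.3 in homozygous cells and 9290.7 and 8666.0 in heterozygous cells, against 7970.9 and 9482.3 in wild-type cells (adjusted p = 0.3324 against wild type). Its cofactor gene Eif4b had log2 fold changes between 0.06 and 0.23. The cap-binding protein gene Eif4e read 1272.5 and 1328.4 in homozygous cells and 1327.8 and 1326.2 in heterozygous cells, against 1070.8 and 1139.1 in wild-type cells. Both wild-type arrays were lowest, but the log2 fold changes of 0.24 ± 0.14 and 0.26 ± 0.14 against wild type did not pass (adjusted p = 0.4056 in homozygous and 0.4419 in heterozygous cells). Eif4e2, for a cap-binding relative that represses translation, differed by between -0.17 and 0.18 on the log2 scale, and Eif4e3 read 1.9 to 3.1 with 1 blank on heterozygous array 2, so it was not tested.

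The eIF4E-binding proteins sequester eIF4E until mTORC1 phosphorylates them. Eif4ebp2, the form known as predominant in brain, read 46.3 and 34.4 in homozygous cells and 52.8 and 53.2 in heterozygous cells, against 60.8 and 70.2 in wild-type cells. The 3 genotypes did not overlap, but both homozygous arrays were under the olfactory receptor level, so the size of the difference (adjusted p = 0.1418 in homozygous against wild-type cells) cannot be read as a fold. Eif4ebp1 lay between 32.6 and 52.7 on all arrays, also near background. Eif4enif1, for a protein that carries eIF4E into the nucleus and into processing bodies, read 126.2 and 164.0 in homozygous cells and 121.2 and 129.1 in heterozygous cells, against 135.4 and 134.5 in wild-type cells.

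Eif5 was the member furthest below wild type in heterozygous cells. It encodes the protein that triggers GTP hydrolysis by eIF2 at the start codon. It read 3093.1 and 2740.9 in homozygous cells and 2929.4 and 2263.4 in heterozygous cells, against 4708.8 and 4227.7 in wild-type cells. Every wild-type value lay above all 4 others, with a log2 fold change of -0.62 ± 0.19 in homozygous against wild-type cells (adjusted p = 0.1667) and -0.79 ± 0.19 in heterozygous against wild-type cells (adjusted p = 0.1767), comparisons that share the wild-type arrays. Of the 16 alternatives, both passed only with a prior that was robust and followed intensity, choices made together (adjusted p = 0.04133 and 0.02278). Eif5b, for the GTPase of subunit joining, overlapped in all 3 comparisons (135.2 to 181.4). Eif5a, for the hypusine-carrying factor that helps ribosomes past difficult peptide bonds, differed by between -0.015 and 0.11 on the log2 scale, at 9689.7 and 10051.6 in homozygous cells and 9613.6 and 8708.8 in heterozygous cells, against 9312.9 and 9177.9 in wild-type cells. Its relative Eif5a2 read 7.5 to 10.3, below the olfactory level.

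**Figure D3:**
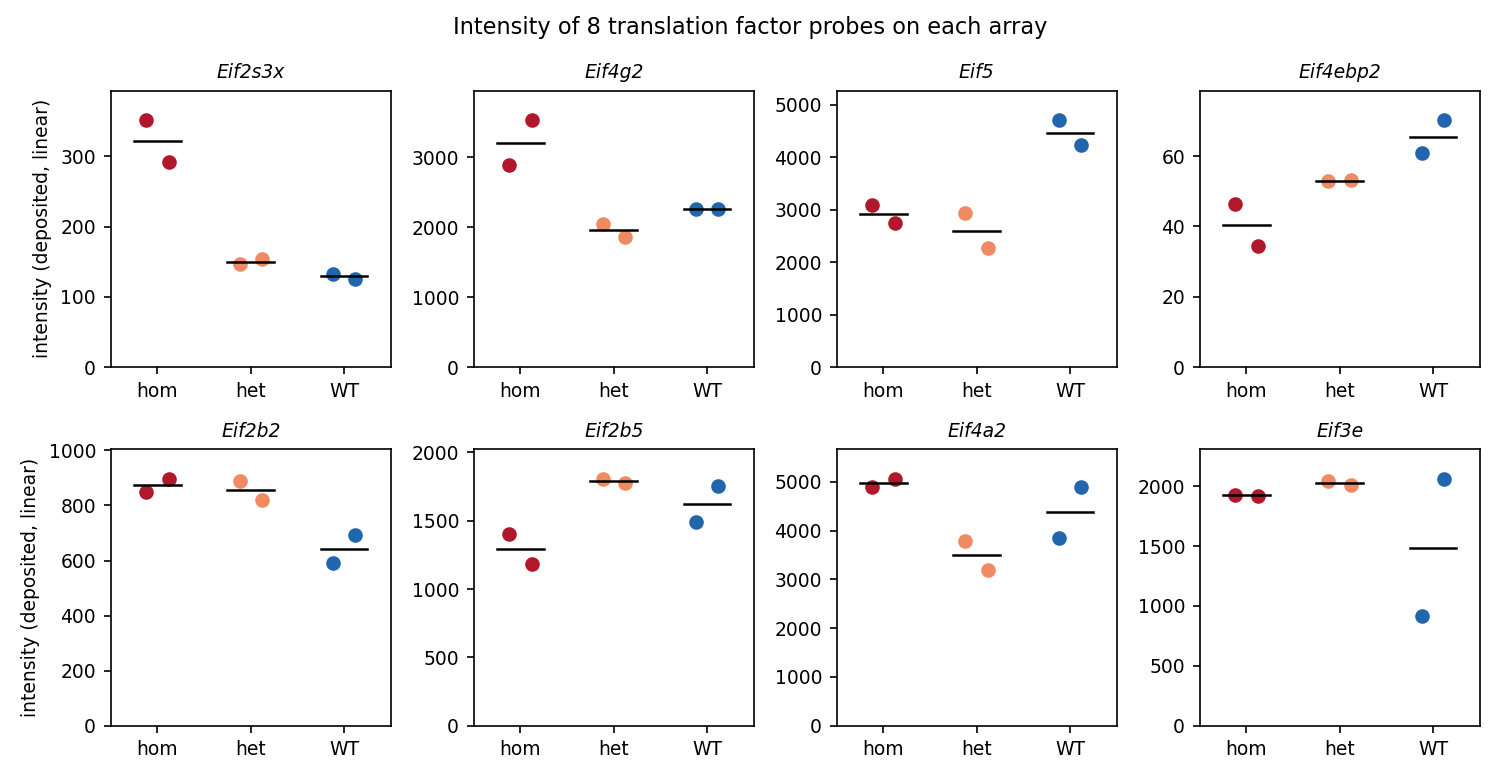
Deposited intensity (vertical axes, linear and starting at 0) of 8 factor probes on every array, with homozygous (hom), heterozygous (het) and wild-type (WT) cells from left to right; points are arrays and bars the mean of 2. Eif2s3x and Eif4g2 have both homozygous points on top, Eif5 both wild-type points, and Eif3e has 1 wild-type point at 912.7 apart from 5 arrays between 1919.6 and 2063.1.

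Elongation factor genes gave 0 calls, where 0.920% (homozygous against wild type), 0.749% (heterozygous against wild type) and 2.69% (homozygous against heterozygous) of all probes passed. Eef1a1 read 46976.4 and 47257.1 in homozygous cells and 58267.6 and 63228.2 in heterozygous cells, against 69523 and 59693.5 in wild-type cells, and each of these was the highest value of its array. On homozygous arrays 7 probes shared that highest value, Ckb and Rpl41 among them, and on the others 1 or 2 probes did. The reading is thus at the upper end of the scale on all arrays, and neither a fold nor a direction is given for it. Eef1a2, the form of mature neurons and muscle that replaces Eef1a1 there, read 13.6 to 20.2, below the olfactory level on all arrays.

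The exchange factor gene Eef1b2 read 9572.0 and 10485.5 in homozygous cells and 13279.8 and 13045.4 in heterozygous cells, against 9328.9 and 12083.9 in wild-type cells. Its heterozygous arrays were the highest, with a log2 fold change of -0.39 ± 0.18 in homozygous against heterozygous cells (adjusted p = 0.3134) and 0.31 ± 0.18 in heterozygous against wild-type cells (adjusted p = 0.4659). Eef1d, for another exchange subunit, read 27.0 to 34.8, below the olfactory level. Eef1e1, which encodes an accessory protein of the tRNA synthetase complex, differed by between -0.15 and -0.04 on the log2 scale. The translocase gene Eef2 read 8051.2 and 8173.9 in homozygous cells and 8612.4 and 10287.7 in heterozygous cells, against 8713.9 and 8895.6 in wild-type cells. Its homozygous arrays were the lowest, by -0.12 ± 0.16 against wild type (adjusted p = 0.7127) and -0.21 ± 0.16 against heterozygous cells (adjusted p = 0.5233).

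The Argonaute probes, whose proteins load small RNAs and silence their targets, are kept apart from the factors. Ago1 read 85.0 and 85.1 in homozygous cells and 62.2 and 58.1 in heterozygous cells, against 53.3 and 61.3 in wild-type cells. Its homozygous arrays were the highest, and its log2 fold change of 0.57 ± 0.15 in homozygous against wild-type cells did not pass (adjusted p = 0.1357), nor did 0.50 ± 0.15 in homozygous against heterozygous cells (adjusted p = 0.1588). Ago4 read 61.2 and 49.4 in homozygous cells and 80.5 and 75.9 in heterozygous cells, against 56.7 and 62.7 in wild-type cells (adjusted p = 0.1926 in homozygous against heterozygous cells), and since homozygous array 2 was under the olfactory level no fold is given. Ago2 exceeded the olfactory level only on wild-type array 1 (57.6, with 35.1 on wild-type array 2), and Ago3 read 2.1 to 4.5.

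The spread between arrays of one genotype was counted over the 38 members whose mean was above the olfactory level. The arrays were over 1.41-fold apart for 1 of 38 in homozygous cells (2.48% of all 9083 tested probes above that level), 1 in heterozygous cells (3.41%) and 3 in wild-type cells (13.9%). The wild-type probes were Eif3e, Eif3k and 1 probe of Eif3j1.

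**Figure D4:**
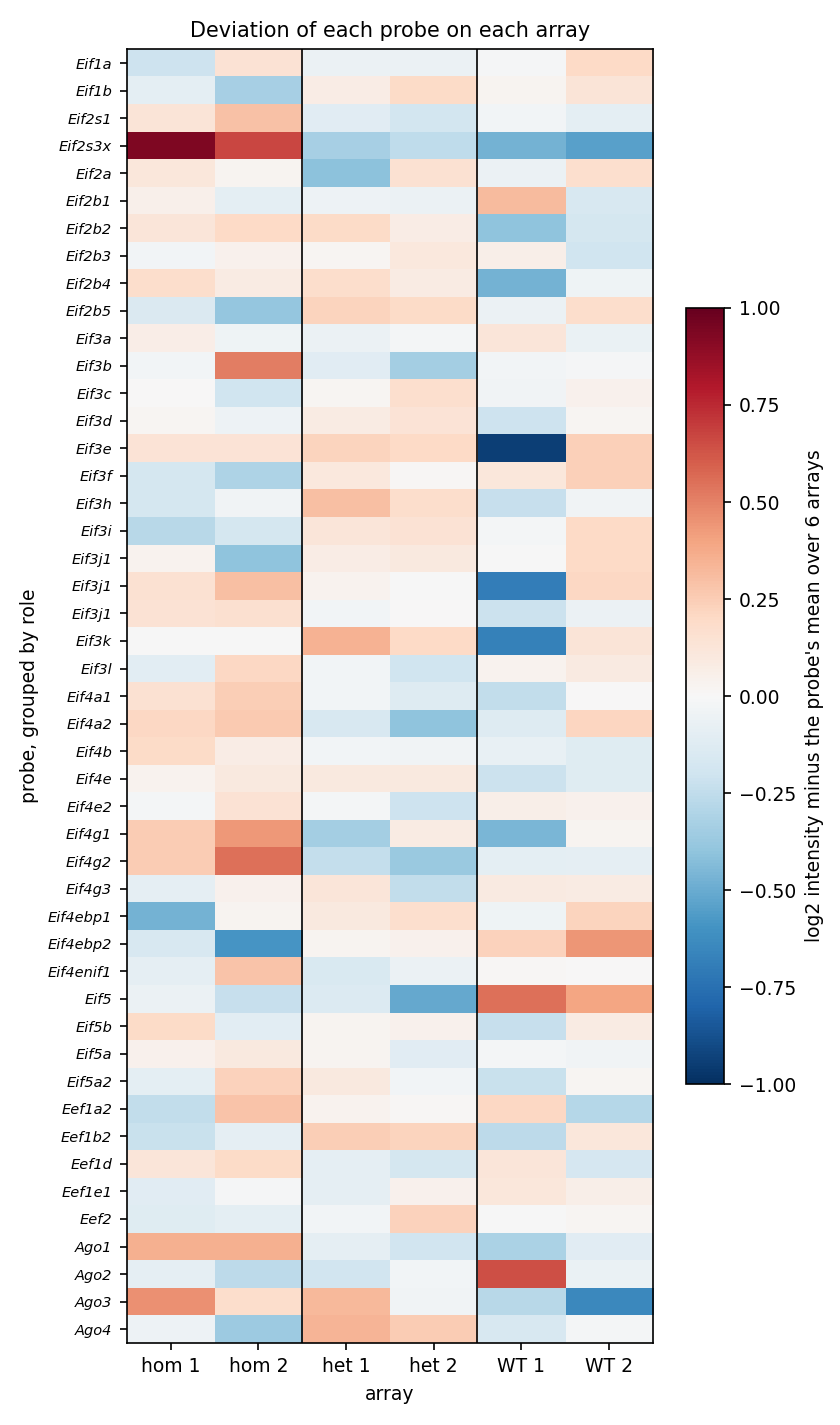
Log2 intensity of 47 tested probes on each array minus the probe's mean over the 6 arrays (colour, red above and blue below), with probes grouped by role from top to bottom and arrays of homozygous (hom), heterozygous (het) and wild-type (WT) cells from left to right; Eef1a1 is left out. Eif2s3x is red on both homozygous arrays, and the dark blue cells of Eif3e, Eif3k and 1 Eif3j1 probe are on wild-type array 1 alone.

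Genes that act on the factors were counted from lists outside the rule. In these comparisons 0.920% (homozygous against wild type), 0.749% (heterozygous against wild type) and 2.69% (homozygous against heterozygous) of all probes passed. None of 4 kinases of eIF2 and eEF2 with a probe passed in any comparison, nor did any of 7 release and recycling factors, 8 mitochondrial translation factors, 10 integrated stress response genes or 8 hypusine and diphthamide enzymes. Among so few probes the absence of calls says little. An unadjusted p under 0.05 was met by 4 of the 7 release and recycling factors in homozygous against wild-type cells (19.0% of all probes). It was met by 1 in heterozygous against wild-type (13.5%) and 4 in homozygous against heterozygous cells (18.2%). In the same order the counts were 0, 0 and 0 kinases and 1, 0 and 1 mitochondrial factors. They were 1, 1 and 3 stress response genes and 1, 1 and 1 enzymes. Of 6 poly(A)-binding proteins and partners, 1 fell: Paip1, whose product links poly(A)-binding protein to eIF4A, read 109.6 and 108.2 in homozygous cells and 111.7 and 125.0 in heterozygous cells, against 328.1 and 356.2 in wild-type cells. Both changed genotypes lay well under wild type, with a log2 fold change of -1.65 ± 0.15 in homozygous (adjusted p = 0.01463) and -1.53 ± 0.15 in heterozygous cells (adjusted p = 0.01477). Of 13 mTORC1 and eIF4E kinase genes, 1 rose: Ddit4l, for an inhibitor of mTORC1, read 193.4 and 186.6 in homozygous cells and 62.8 and 56.6 in heterozygous cells, against 8.8 and 6.1 in wild-type cells, where it was below the olfactory level. It passed in homozygous (adjusted p = 0.003108) and heterozygous (adjusted p = 0.004996) against wild-type cells and in homozygous against heterozygous cells (adjusted p = 0.01751). The factors annotated under other names did not pass: Eif6, which keeps ribosomal subunits apart, had a log2 fold change of 0.28 ± 0.17 in homozygous against wild-type cells, Eif4a3, of the exon junction complex, 0.04 ± 0.16, and Eif4h, a helicase cofactor, 0.48 ± 0.27.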

How the data were processed

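Transcript levels were measured on 6 one-colour arrays, 2 per Ecrg4 genotype. The authors deposited intensity values on a linear scale; each column had a median of 30, so they were read as already scaled between arrays. The sources used here name no scanner, background correction or rule for blank cells. Per the labels' protocols RNA was amplified to amino allyl aRNA and dye-coupled, while the label field names biotin. Intensities were log2-transformed without a pseudocount, and the 20434 probes measured on each of the 6 arrays were fitted (3032 had a blank). The model, fitted by lmFit and eBayes of limma 3.58.1 (R 4.3.3), had 1 coefficient per genotype and 3 residual degrees of freedom, to which the prior added 3.27. Tests were two-sided, with Benjamini-Hochberg adjustment over all probes tested and a threshold of 0.05. The number of arrays limits the precision.

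Symbols of the platform annotation were updated through a RefSeq gene table (GRCm38.p6), which replaced 3943 of 16625 and left 59 with several matches and 3 with none as they were. The members and lists were chosen with earlier results of these data known. Genes named were Ecrg4, members past the threshold, the 5 highest and 5 lowest log2 fold changes per comparison, a list of well-known factors, genes whose probes disagree, and list members past the threshold; of the lowest and highest, those near background are given as intensities. The genes known to escape X inactivation, Kdm5d and the factors under other names were added after values were seen. The scripts were tested on simulated data.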

Additional observations from a re-analysis of the deposited data

How the results depend on the processing

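Each pairwise comparison was repeated under 16 alternatives. With 2 arrays per genotype, the counts of passing factor and Argonaute probes changed in many of them. Each count is given without the share of all probes passing in the same setting, and that share moved as well. A changed count therefore says nothing particular to these members. The olfactory filter left 38 of the 48 members and 9083 probes. In homozygous against wild-type cells the count of 1 became 0 with blank cells filled, with array weights, with the compared arrays alone and with the replicate number as a block, 2 with a pseudocount of 50 or only probes above the olfactory receptor level (Ago1 was added), and 3 with an intensity trend and a robust prior together (Eif5 and Eef1a1, the last at the upper end of the scale); it was 0 whenever 1 array was left out. In heterozygous against wild-type cells 0 became 1 with the trend and robust prior (Eif5), and ranged from 0 to 1 when 1 array was left out, the 1 being Eif3e without wild-type array 2. In homozygous against heterozygous cells 1 became 2 with quantile or cyclic loess normalization, the pseudocount, the olfactory filter, the trend and robust prior or array weights (Eif4g2 was added) and 0 with the replicate block, and ranged from 0 to 1 when 1 array was left out. In the F test 1 became 3 with the olfactory filter or the trend and robust prior (Eif4g2 and Eif5 were added) and 0 with the block, and ranged from 0 to 2 when 1 array was left out. Passing probes over the whole table ranged from 1 to 1094, 18 to 400 and 6 to 1357 in the comparisons homozygous against wild type, heterozygous against wild type and homozygous against heterozygous. The median log2 fold change of the factor probes in homozygous against wild-type cells was 0.012 with median centring and 0.026 with the pseudocount, and in homozygous against heterozygous cells -0.015 with median centring and 0.066 with cyclic loess. When 1 array was left out, the medians ranged from -0.0079 to 0.10, -0.016 to 0.094 and -0.0078 to 0.028 in the same order. Of the 48 probes, 29, 29 and 30 kept their sign in every alternative, though several alternatives alter the test alone and could not change a sign. The cause of the other changes was not tested. Same-numbered arrays did not deviate together (r = 0.016, 0.010 and -0.076), so the numbers are not taken as pairs; under the replicate block the adjusted p of Eif2s3x was 0.07993 against wild type and 0.0677 against heterozygous cells.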
